A study of Mus musculus with 15 samples.

Results

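The Tnf, Lta and Ltb locus was followed as 11 stretches of accessible chromatin in a 50 kb window of mouse chromosome 17, chr17:35315000-35365000 in build mm9, in which the 3 genes lie at about 35.331 to 35.343 Mb. All DNase hotspots of the 15 deposited lists that overlapped the window (130 of 1124658) were taken, and hotspots from different lists were joined into one element where they overlapped by 1 bp or more. Elements are numbered 1 to 11 in order of position. The 15 lists together held 324309 such merged regions in the genome. Hotspots are the stretches that DNase I digested more readily than their surroundings, as listed by the authors for each library.

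Tnf encodes tumour necrosis factor, a cytokine that activated macrophages release early and that signals through 2 receptors, TNFR1 and TNFR2. Lta encodes lymphotoxin alpha, a secreted relative that binds the same receptors. Ltb encodes lymphotoxin beta, a membrane protein that holds lymphotoxin alpha at the cell surface in a complex that binds the lymphotoxin beta receptor and takes part in building lymphoid organs. The 3 genes lie side by side in the class III region of the major histocompatibility complex. In macrophages Tnf is a textbook target of NF-kB after Toll-like receptor signalling.

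Macrophages grown from C57BL/6J bone marrow received 10 ng/ml lipopolysaccharide (LPS, an outer membrane component of Gram-negative bacteria that signals through Toll-like receptor 4) and were taken at 0, 3 or 8 h. The 15 libraries fall into 9 groups: at every time there were 2 Ikzf KO libraries, 2 from wild type (WT) and 1 from a littermate control. WT and littermate libraries are called controls here, and libraries of one genotype with the same replicate number over the 3 times are called a series. Ikaros, which the title of the study gives, is a zinc finger transcription factor of blood cells; the labels leave the mutant allele undescribed. WT replicate 1 and all littermate and KO libraries had 80 U of DNase by their titles and WT replicate 2 had 100 U. Since the labels name no animal or culture for a replicate, the p-values rest on library-to-library spread that could be purely technical.

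In the RefSeq gene table (GRCm38.p6) Ltb, Tnf and Lta follow each other in this order, with Lst1 before Ltb and Nfkbil1 after Lta. The files use mm9, for which no annotation was used here, so elements are given by position and not assigned to a promoter, exon or intron. Elements 5 and 6 lie inside the gene span named above, elements 1 to 4 before it and elements 7 to 11 after it. The promoters of the 3 genes are printed to show the regulatory sequence at the start of each gene. Each runs from 250 bases before to 50 bases after the gene's start, 5′ to 3′ on the gene's own strand, from RefSeq build GRCm38.p6 (chr17:35194257-35194556 plus strand, chr17:35201958-35202257 minus strand, chr17:35205302-35205601 minus strand). These coordinates belong to another build than the hotspots and cannot be set against them. Capitals mark matches to the motifs searched.
Ltb: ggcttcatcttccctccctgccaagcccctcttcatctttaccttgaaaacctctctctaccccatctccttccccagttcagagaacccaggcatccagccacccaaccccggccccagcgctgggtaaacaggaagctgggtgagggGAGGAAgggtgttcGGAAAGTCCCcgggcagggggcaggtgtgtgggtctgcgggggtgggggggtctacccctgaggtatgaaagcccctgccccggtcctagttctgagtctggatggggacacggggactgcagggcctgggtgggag
Tnf: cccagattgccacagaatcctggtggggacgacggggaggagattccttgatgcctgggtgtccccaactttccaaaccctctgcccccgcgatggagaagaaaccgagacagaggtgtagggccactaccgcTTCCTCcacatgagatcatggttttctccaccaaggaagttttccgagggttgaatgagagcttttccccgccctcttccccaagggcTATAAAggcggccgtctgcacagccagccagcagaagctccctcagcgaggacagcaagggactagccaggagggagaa
Lta: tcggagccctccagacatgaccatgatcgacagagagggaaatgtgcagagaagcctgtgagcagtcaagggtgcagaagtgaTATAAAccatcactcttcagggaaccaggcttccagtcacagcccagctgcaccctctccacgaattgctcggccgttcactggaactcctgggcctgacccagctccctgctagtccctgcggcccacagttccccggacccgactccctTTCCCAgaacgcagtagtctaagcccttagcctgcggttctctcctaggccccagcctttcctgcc

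The 7 motifs searched on both strands were the kB site, the Ikaros core TGGGAA, the ETS core GAGGAA that PU.1 binds, the AP-1 site TGANTCA, the cAMP response element TGACGTCA, the C/EBP site TTGCNNAA and the TATA box TATAAA. The Ltb promoter held a kB match on the opposite strand at bases 164 to 173 and an ETS core at bases 150 to 155, counted from the 5′ end. In the Tnf promoter an ETS core stood on the opposite strand at bases 134 to 139 and a TATA box at bases 222 to 227. The Lta promoter had an Ikaros core on the opposite strand at bases 235 to 240 and a TATA box at bases 84 to 89. Of 32851 promoters in the table, 4.51% held a kB match, 25.6% an Ikaros core, 28.3% an ETS core and 13.6% a TATA box. The letters of the AP-1, cAMP response and C/EBP motifs, which 7.81%, 1.79% and 10.8% of promoters held, are not in these 3 windows. The matches describe letters only, and no hotspot could be placed on them.

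The lists differed in length from 15659 to 132279 hotspots, and read depth is unknown. The lowest Z-score listed was 7.98 to 10.6 in WT, 3.65 to 4.54 in the littermate and 3.40 to 3.66 in KO. Scores are the authors' own, and the tests used only their order within a list; values of different lists are given as they stand, with no scale known to be common to them. For comparisons the lists were shortened to their 15659 highest Z-scores, hotspots were ranked by Z-score (rank 1 is the strongest), and an element took its best rank or, if absent, a rank just past the end. Where the lists as deposited were compared, an absent element took a rank just past 132279, whatever the length of its own list. Rank differences in that setting therefore also hold list length. A log2 rank difference is positive where the element stood nearer the top, and a difference of 1 means a rank 0.5 times as large. The hotspot at rank 15659 had a Z-score of 8.48 to 11.4 in controls at 0 and 3 h, 25.8 to 27.3 in controls at 8 h and 25.1 to 40.0 in KO.

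**Figure D1:**
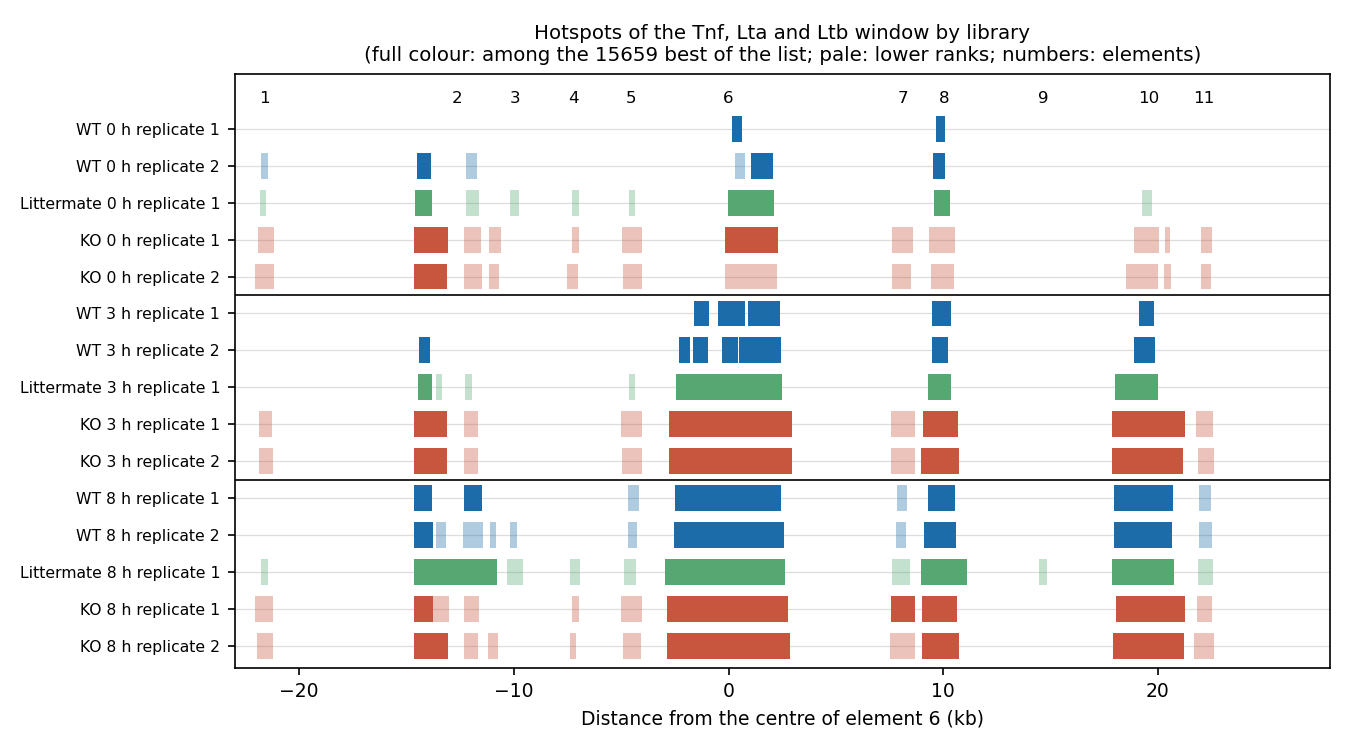
Hotspots of the window in the 15 deposited lists, one row per library, by distance in kb from the centre of element 6. Full colour marks hotspots among the 15659 best of their list and pale colour lower ranks. Element 6 is in all 15 lists and spans more of the axis at 3 and 8 h than at 0 h, and element 7 is in all 6 KO lists but in controls at 8 h alone.

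Elements 6, 8 and 10 stood higher in the lists after LPS in every series. Element 6 (chr17:35334322-35340228, inside the gene span) was in all 15 lists. Before LPS its best rank was 13524 and 11091 in WT, 7203 in the littermate and 13228 and 15781 in KO. At 3 h it was 2192 and 3412 in WT, 902 in the littermate and 3808 and 3167 in KO. At 8 h it was 5916 and 6720 in WT, 5954 in the littermate and 5819 and 5591 in KO. Ranks at 0 h did not overlap those at 3 h or at 8 h, and the highest rank of all was that of the littermate at 3 h, within the top 1.72% of its list.

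Element 8 (chr17:35346253-35348391, beyond the gene span) was also in all 15 lists. Its ranks at 0 h were 12310 and 15018 in WT, 7496 in the littermate and 23833 and 25385 in KO. At 3 h they were 4689 and 6783 in WT, 985 in the littermate and 6997 and 6424 in KO, so all libraries at 3 h ranked above all at 0 h. At 8 h they were 6211 and 8208 in WT, 3092 in the littermate and 7309 and 9668 in KO, which overlapped the littermate value at 0 h.

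Element 10 (chr17:35355132-35358537) was missing from both WT lists at 0 h and low in the others, at 43251 in the littermate and 21878 and 19786 in KO. At 3 h its ranks were 5548 and 7947 in WT, 7535 in the littermate and 7963 and 7241 in KO. At 8 h they were 9624 and 11883 in WT, 10618 in the littermate and 8844 and 7871 in KO. No 0 h library reached the ranks of any library at 3 or 8 h.

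Against 0 h, the log2 rank difference at 3 h was 2.28 for element 6, 1.58 for element 8 and 1.12 for element 10. Each was positive in 5 of 5 series (two-sided exact permutation test, times permuted inside each genotype, p = 0.0278, adjusted p = 0.288 over 26049 regions). At 8 h the differences were 0.97, 0.99 and 0.70, again in 5 of 5 series (exact permutation p = 0.0278, adjusted p = 0.227 over 25718 regions). The 72 arrangements cannot give a p under 0.0278, and no region of the genome passed an adjusted p of 0.05 in either comparison. At the unadjusted level, 3 of the 4 elements tested at 3 h and 3 of the 5 tested at 8 h were called higher, where 4.71% and 7.3% of all regions were. Groups without overlap, which held for elements 6, 8 and 10 at 3 h and for 6 and 10 at 8 h, were found in the same direction for 2.49% and 4.3% of all regions. With any one series left out, the smallest p the arrangements allow is 0.0556 or 0.0833, and no element is then called. Times swapped only within a series (a replicate block) cannot give a p under 0.05 either, and call no element.

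**Figure D2:**
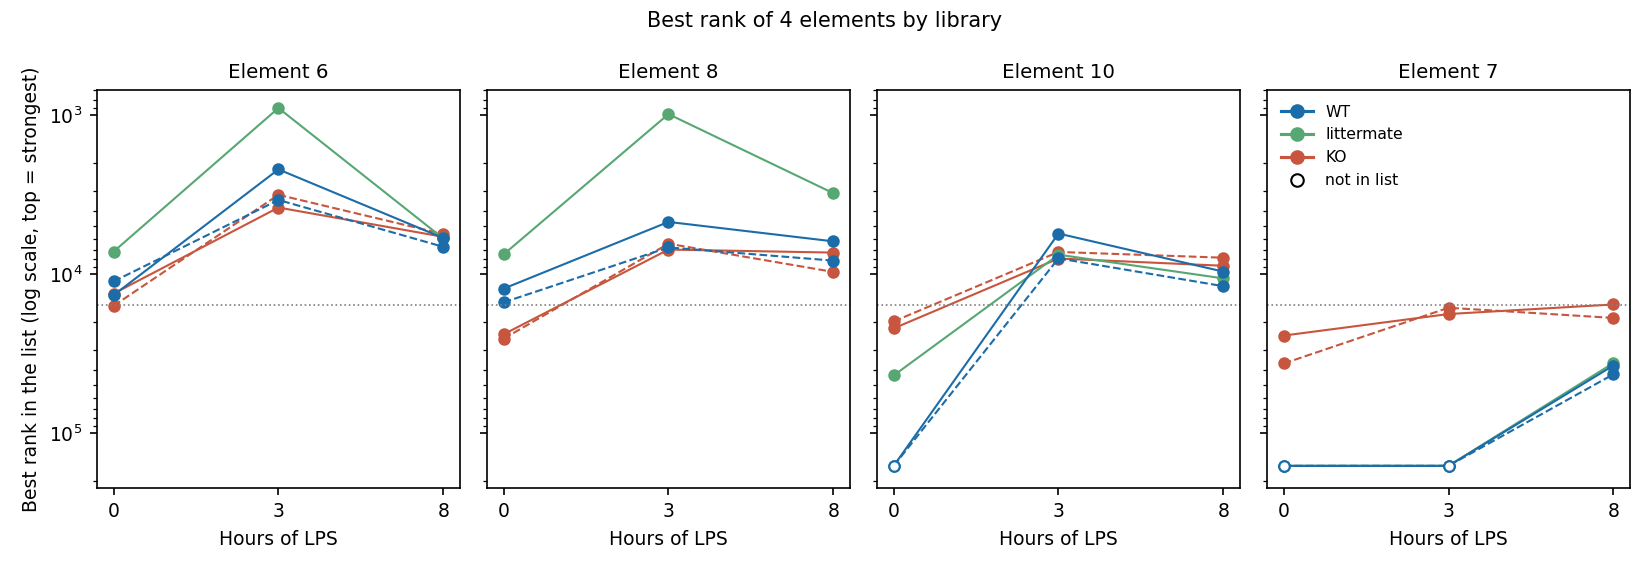
Best rank of elements 6, 8, 10 and 7 in each deposited list against hours of LPS, on a log scale with the strongest ranks at the top; solid lines are replicate 1, dashed lines replicate 2, open circles lists without the element, and the dotted line rank 15659. Elements 6, 8 and 10 stand highest at 3 h in all 5 series.

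At 8 h the same 3 elements ranked lower than at 3 h in 5 of 5 series. The log2 rank difference of 8 h against 3 h was -1.31 for element 6 (exact permutation p = 0.0278, adjusted p = 0.344 over 24233 regions), -0.60 for element 8 (exact permutation p = 0.0833) and -0.43 for element 10 (exact permutation p = 0.0556). Only element 6 was called at the unadjusted level, in a direction in which 2.91% of all regions were called. Ranked by highest tag density instead, the differences were closer to 0 and that of element 8 changed sign. The deposited Z-scores of element 6 lay at 9.75 to 14.8 in controls at 0 h, at 26.9 to 37.4 at 3 h and at 45.6 to 58.6 at 8 h, and in KO at 25.0 to 29.5, 61.4 to 68.2 and 64.2 to 73.1. Its highest tag density was 8.36 to 10.3, 17.5 to 23.0 and 48.2 to 53.2 in controls and 23.7 to 29.6, 50.0 to 52.3 and 63.3 to 70.9 in KO. The Z-score at a fixed rank also differed between these lists, as given above, so no direction is read from these values, and the part of that difference in the ranks was not tested.

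The open stretch of element 6 was longer after LPS. At 0 h its hotspots began between 35337089 and 35337577 in the 5 lists. At 3 h they began between 35334492 and 35335645, and at 8 h between 35334322 and 35334760. Within a series the beginning lay 1781 to 2610 bp farther toward lower coordinates at 3 h and 2665 to 2949 bp farther at 8 h. The 2767 bp from 35334322, the start of the element, to 35337089, the lowest beginning at 0 h, are empty at 0 h by this choice of ends. Hotspots reached into this part in 5 of 5 lists at 3 h and 5 of 5 at 8 h, which restates the beginnings above. They covered 996 to 2597 bp of it at 3 h and 2329 to 2767 bp at 8 h. In WT at 3 h the element was split into 3 hotspots in replicate 1 and 4 in replicate 2. Of these, the hotspots at 35336806 to 35338028 (replicate 1) and 35336960 to 35337722 (replicate 2) crossed the end of this part. In the other lists after LPS 1 hotspot spanned 4966 to 5735 bp.

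**Figure D3:**
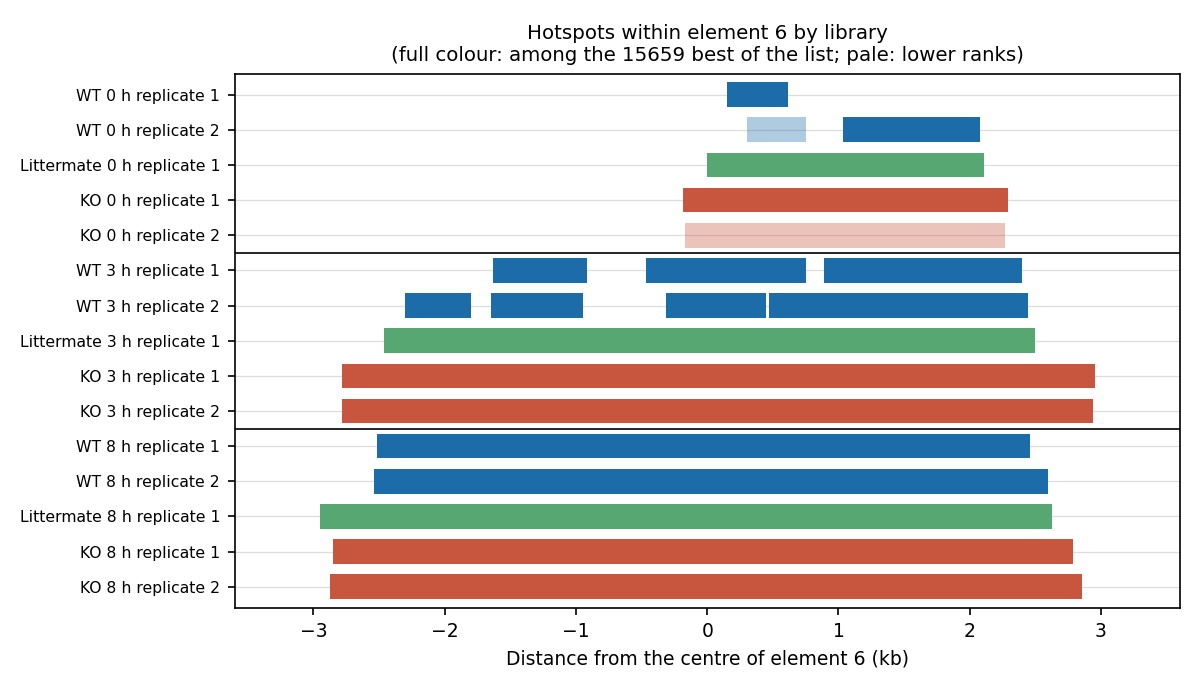
Hotspots within element 6 in each deposited list, by distance in kb from the centre of the element, with full colour for ranks up to 15659. Hotspots begin farther left in all 10 lists at 3 and 8 h than in the 5 lists at 0 h, and in WT at 3 h they lie in separate pieces.

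In the equally long lists, the covered length of element 6 was 0 to 2479 bp at 0 h, 3447 to 5735 bp at 3 h and 4974 to 5730 bp at 8 h. That of element 8 was 0 to 783 bp, 753 to 1735 bp and 1245 to 2135 bp, and that of element 10 was 0 bp, 696 to 3404 bp and 2704 to 3308 bp. All 3 were longer than at 0 h in 5 of 5 series at both times (exact permutation p = 0.0278 each, adjusted p = 0.331 at 3 h and 0.134 at 8 h). At the unadjusted level 4.82% of all regions were called longer at 3 h and 19.9% at 8 h, so a longer element was common at 8 h. A length of 0 bp can mean a rank past 15659, as for element 6 in KO replicate 2 at 0 h (rank 15781). In the lists as deposited, element 8 covered 395 to 1213 bp and element 10 covered 0 to 1789 bp at 0 h. Both ranges overlapped those at 3 h (753 to 1735 bp and 696 to 3404 bp), but not those at 8 h. Element 6 covered 463 to 2479 bp at 0 h there, without overlap.

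Over the whole window the equally long lists covered 858 and 2265 bp in WT, 3717 bp in the littermate and 4032 and 1544 bp in KO at 0 h. At 3 h they covered 5018 and 6183 bp in WT, 8674 bp in the littermate and 12304 and 12320 bp in KO. At 8 h they covered 10608 and 10204 bp in WT, 14469 bp in the littermate and 12465 and 12332 bp in KO. In these equally long lists no library at 0 h reached one at 3 or 8 h. In the lists as deposited the KO libraries at 0 h covered 11525 and 11779 bp, more than WT (5018 and 6183 bp) and the littermate (9570 bp) at 3 h. In the equally long lists, libraries covered more than at 0 h by a mean of 6417 bp at 3 h (exact permutation p = 0.0278, adjusted p = 0.255 over 15188 windows of the same length) and 9532 bp at 8 h (exact permutation p = 0.0278, adjusted p = 0.111 over 15224 windows). The median over all windows was 13.8 bp at 3 h and 377.3 bp at 8 h. At the unadjusted level 6.41% of windows were called longer at 3 h and 24.0% at 8 h, and 1.15% and 5.31% had groups without overlap. As large a mean difference was found in 4 other windows at 3 h and in 2 others at 8 h. In the lists as deposited the difference was 3968 bp at 3 h, with groups that overlapped and 46 other windows as high, and 8905 bp at 8 h, with 24 others. In lists of 0.5 times the length it was 5795 bp at 3 h, also with overlap and 1 other window as high, and 5722 bp at 8 h, with 7 others.

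**Figure D4:**
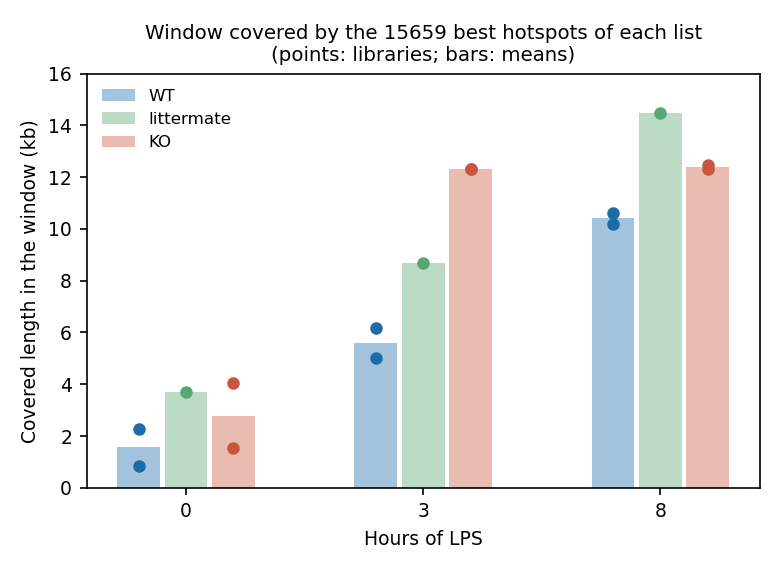
Length of the window covered by the 15659 best hotspots of each list, in kb, against hours of LPS; points are libraries and bars are means of 2 WT, 1 littermate and 2 KO libraries. The 0 h libraries lie at 858 to 4032 bp, below all libraries at 3 and 8 h.

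KO and control libraries were compared within each time. The test over the 3 times takes the libraries of a series as independent over times, also where the littermate is the only control. With the 5 series as units, no p under 0.1 would be possible. Smaller p-values for KO against controls rest on that independence, which is not established. None of the 5 elements in the equally long lists was called (exact permutation of genotype within time, adjusted p under 0.05), while 20.8% of all regions were; none had an unadjusted p under 0.05 either. The log2 rank difference of KO against controls was -0.42 for element 6 (exact permutation p = 0.157, adjusted p = 0.328 over 27627 regions), -0.74 for element 8 (exact permutation p = 0.068, adjusted p = 0.190) and 0.07 for element 10 (exact permutation p = 0.47, adjusted p = 0.670). Ranked by highest tag density, which is not comparable in scale between the lists but orders hotspots within one, element 10 had a difference of 1.33 (exact permutation p = 0.001, adjusted p = 0.0152) and element 7 one of 0.88 (exact permutation p = 0.004, adjusted p = 0.0343), and that of element 6 turned to 0.29 (exact permutation p = 0.318). In that ranking element 2 had 1.045 (exact permutation p = 0.028) and element 8 had -0.027 (exact permutation p = 0.957). The share of all regions past the threshold by tag density is not given here, so these values are not read as a result about these elements. By Z-score rank, element 10 was covered over a greater length in KO, by 870.9 bp on average (exact permutation p = 0.010, adjusted p = 0.0225), and 47.2% of all regions passed in one direction or the other. Over the window KO lists covered 2278 bp more (exact permutation p = 0.063, adjusted p = 0.0970), where 58.9% of windows passed. The control chosen decided this value: it was 213 bp against the littermate alone (exact permutation p = 0.963) and 3310 bp without the littermate (exact permutation p = 0.0185, adjusted p = 0.0359). Without the littermate 8643 of 15321 windows passed. At 3 h both KO libraries covered more of the window than the 3 controls, as in 71.8% of windows. The mean difference was 5687 bp (exact permutation p = 0.1, the smallest possible, adjusted p = 0.147). The median over all windows was 1151 bp, and 191 other windows had as large a difference.

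The LPS difference of 8 h against 0 h was also compared between genotypes. In log2 rank it was 0.61 larger in KO than in control series for element 6 and 0.15 smaller for element 8 (exact permutation of 5 series, p = 0.3 and p = 0.5, where 0.1 is the smallest possible). Both KO ranks of element 8 at 0 h (23833 and 25385) lay past 15659, so its KO difference is cut short in these lists. In the lists as deposited it was 0.50 larger in KO than in control series. In the equally long lists element 10 alone had series without overlap, with a difference 0.35 larger in KO, and 18.1% of all regions had the same. No library at 0 h had element 10 among its 15659 best hotspots, so this value holds the 8 h ranks alone, and in the lists as deposited the difference was -1.78. That last value rests on a rank just past 132279 for both WT libraries at 0 h, which lacked the element.

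Before LPS, element 8 ranked lower in both KO libraries (23833 and 25385) than in the 3 controls (7496 to 15018), as did 15.4% of all regions at 0 h. As a share of the list these ranks were 21.36% and 22.5% in KO, 71.42% and 70.25% in WT and 11.66% in the littermate. By highest tag density KO and controls hardly differed over the 3 times, as given above. No loss of element 8 in KO is read from these values. After LPS the KO ranks overlapped those of the controls at 3 h and at 8 h. Against the littermate alone, in lists of 52400 hotspots, the log2 rank difference of element 8 over the 3 times was -1.97 (exact permutation p = 0.0370, the smallest that 27 arrangements give, adjusted p = 0.208 over 100806 regions). Of the 10 elements in those lists, element 8 was called lower at the unadjusted level and elements 1, 5 and 7 higher, where 5.5% and 12.3% of all regions were called.

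Element 7 (chr17:35344796-35345977), between elements 6 and 8, was in all 6 KO lists and in controls at 8 h alone. KO libraries ranked it 24287 and 36382 before LPS, then 17784 and 16241 after 3 h. After 8 h its KO ranks were 15491 and 18816. The 8 h controls had it at 37506 and 42582 in WT and 36177 in the littermate. The littermate lists of 64262 hotspots at 0 h and 52400 at 3 h did not hold it. The WT lists ended at 17237 and 21377 hotspots at 0 h, before either KO rank, so its absence there cannot be told apart from the shorter lists. At 3 h they ended at 15659 and 20077, the latter past both KO ranks. Against the littermate the log2 rank difference was 1.18 (exact permutation p = 0.0370, adjusted p = 0.208). At 8 h, in lists of 48084 hotspots, it was 1.18 against the 3 controls, with no overlap (exact permutation p = 0.1, the smallest possible).

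In those 8 h lists, elements 1, 6, 7 and 10 ranked higher in both KO libraries than in all controls, as did 29.7% of all regions, and element 11 ranked lower, as did 23.0%. In lists of 15659 hotspots, elements 6 and 10 of 5 did so, against 26.3% of all regions. For element 6 the ranks were 5591 and 5819 against 5916 to 6720, a log2 difference of 0.12. Shares of this size in all regions mean that a lack of overlap at 8 h does not set these elements apart.

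Element 2 (chr17:35322604-35326673) was in 13 of the 15 lists, absent from WT replicate 1 at 0 and 3 h. At 0 h it ranked above elements 6, 8 and 10 in the other 4 libraries, at 7245 in WT replicate 2, 6455 in the littermate and 9826 and 13434 in KO. Over all lists its best rank of 6455 to 13912 overlapped between times and genotypes. Its log2 rank difference was -0.18 at 3 h (exact permutation p = 0.556) and -0.13 at 8 h (exact permutation p = 0.667). It joins separate hotspots that 1 wide hotspot of the littermate at 8 h bridges. The hotspot at 35324922 to 35325862, singled out after its values were seen, ranked 15234 and 17650 in WT at 8 h and 47374 and 51447 in KO at 8 h. It ranked 17403 in WT replicate 2 and 19632 in the littermate at 0 h, against 39867 and 38950 in KO. At 3 h it ranked 35197 in the littermate and 56766 and 54500 in KO, and the WT lists lacked it. As a share of the list its ranks at 8 h were 31.7% and 34.1% in WT and 37.8% and 38.9% in KO. At 0 h they were 81.4% in WT replicate 2, 30.6% in the littermate and 35.7% and 34.5% in KO. No order of genotypes is read from these values. The neighbouring hotspots at 35322604 to 35324233 had best ranks in KO from 7703 to 13434, within the range of the controls. No test was made on the parts.

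Element 5 (chr17:35332267-35333248), the other element inside the gene span, was in all 6 KO lists, all 3 littermate lists and the WT lists at 8 h, where it ranked 29341 and 34313. Its rank was 26831 to 34074 in KO at 0 and 3 h and 43555 and 49035 at 8 h, against 36345, 39323 and 56784 in the littermate. These lists differ in length: as a share of the list the littermate ranks were 56.6% at 0 h, 75.0% at 3 h and 49.6% at 8 h, so no order of times is read from them. Element 1 (chr17:35315216-35316097) was in all 6 KO lists at ranks of 25129 to 42062, in the littermate at 0 and 8 h at 41481 and 81243, and in WT replicate 2 at 0 h at 18989. Element 11 (chr17:35358973-35359864) was in all 6 KO lists at 39718 to 88000 and in controls at 8 h alone at 27243 to 36640. Element 4 (chr17:35329769-35330342) was in 6 lists, none of them at 3 h, at ranks of 41215 to 122811. Element 3 (chr17:35326958-35327689) was in 3 control lists and no KO list, though KO lists held 111553 to 132279 hotspots. It ranked 26483 in the littermate at 0 h, 33457 in the littermate at 8 h and 48315 in WT replicate 2 at 8 h. Element 9 was in the littermate list at 8 h alone, at rank 85872.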

How the data were processed

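DNase-seq hotspot lists of 15 libraries were used as deposited, 1 list per library. Per the labels' protocols, digested nuclei gave short DNA that was purified over sucrose and read from a single end. The submitters' processing notes name mm9 and CASAVA. Which aligner and caller made the hotspots, and at what cutoff, is not stated. Each hotspot has, per the file headers, tag density as a peak and an average value, a signal of unstated scaling. It also carries the authors' score, a Z-score. The deposited p-value column was not used. The lists give no read counts, so depth is unknown and no interval for it can be given. They were cut at different Z-scores, so comparisons between lists used ranks in lists of 15659 hotspots, the length of the shortest. Whether coordinates count from 0 or 1 is not stated.

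Groups were taken from the sample titles. Regions were merged at 1 bp overlap with Python 3.11 and numpy 2.4.6, and every test was run on all regions of the genome in the lists compared. Tests were exact two-sided permutations, of times within genotype (72 arrangements), of KO and control within time (1000) or of series (10), with Benjamini-Hochberg adjustment over all regions or all 50 kb windows tested. The permutation of KO and control within time takes libraries of a series as independent over times. Past the threshold means an adjusted p under 0.05; unadjusted calls are named as such. The steps were tested on simulated ranks. All elements in 2 or more lists were described, by the rule for named items. Alternatives were shorter and full lists, ranks by tag density, bins of 500 bp, each series left out, a replicate block and other controls; covered length per element, 8 h against 3 h, single times and the 8 h lists were added after the data were seen. The window, the members and the motifs were chosen with earlier results of these data known. Cell type markers and other pathway genes could not be used, since the lists carry no gene names.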

Additional observations from a re-analysis of the deposited data

How the results depend on the processing

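Elements 6, 8 and 10 stood higher at 3 h and at 8 h than at 0 h under every alternative run (10 each, 9 for element 10 at 8 h). The log2 rank difference ranged from 1.68 to 2.43, 0.86 to 2.48 and 0.13 to 2.81 at 3 h, and from 0.36 to 1.90, 0.34 to 2.54 and 0.62 to 2.38 at 8 h. Counts of elements called at an unadjusted p under 0.05 depended on what the arrangements allow. At 8 h, 3 of 5 elements were called, against 1 of 3 with lists of 0.5 times the length and 5 of 11 in the lists as deposited. Without any 1 series 0 to 0 were called, and at 3 h also 0 to 0. For 8 h against 3 h it was 0 to 0 where 1 had been called, or 0 with ranks by tag density. With the replicate block the count was 0 at 3 h, at 8 h and for 8 h against 3 h, since swaps within 5 series cannot give a p under 0.05. Same-numbered libraries deviated together in WT (correlations of 0.415 to 0.518 over 27627 regions), where the number also marks the DNase amount, and in KO less or not at all (-0.0537 to 0.194, the highest between 3 and 8 h). Pairing is therefore not established for every series, and counts over series follow the numbers in the titles only.

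For KO against controls, 0 of 5 elements had an unadjusted p under 0.05. The count was 4 of 11 in the lists as deposited, 4 of 9 with ranks by tag density and 4 of 10 with the littermate alone. Without 1 series it was 0 to 1. These counts pool both directions. In the lists as deposited element 8 had a log2 rank difference of -0.96, lower in KO (exact permutation p = 0.027). In the lists as deposited element 7 had a log2 rank difference of 2.10 (exact permutation p = 0.001, the smallest possible). It was absent from the WT and littermate lists at 0 and 3 h, where it took a rank just past 132279. The WT lists at these times ended at 15659 to 21377, so this value cannot be told apart from list length. With ranks by tag density the differences were 0.88 for element 7 and 1.33 for element 10. The values of 2.10, 0.88 and 1.33 passed an adjusted p of 0.05, looked at here only for the 5 elements of the equally long lists. All p-values over the 3 times take the libraries of a series as independent. At 8 h, 2 of 5 elements had groups without overlap. With lists of 0.5 times the length it was 1 of 3, in the lists as deposited 5 of 11 and with ranks by tag density 4 of 9. In the lists of 48084 hotspots the count was 5, and without 1 series 2 to 4. For the difference of LPS effects the count was 1, against 5 in the lists as deposited, 4 with ranks by tag density and 1 to 3 without 1 series. Shares of all regions are not given here for full lists, lists of 0.5 times the length, ranks by tag density or series left out. Counts in those settings are therefore not read as a result about these elements. The difference of KO against controls in covered length of the window, 2278 bp, was 6663 bp in the lists as deposited, which passed the threshold, and 1581 to 3310 bp without 1 series, passing it without the littermate.

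Directions changed as follows, and the cause was not tested. With ranks by tag density, element 2 had a difference of 0.17 at 3 h, 0.76 at 8 h, 1.04 for KO against controls and -0.053 for the difference of LPS effects; element 6 had 0.29 for KO against controls; element 8 had 0.15 for the difference of LPS effects and 0.065 for 8 h against 3 h, and element 7 had -0.0041 there. In the lists as deposited, element 2 had 0.49 at 8 h and 0.61 for KO against controls, and the differences of LPS effects were -0.51 for element 2, -0.97 for element 7, 0.50 for element 8 and -1.78 for element 10. With lists of 0.5 times the length, element 10 had -0.043 for KO against controls and element 2 had -0.016 for 8 h against 3 h. Without 1 series, element 2 ranged from -0.27 to 0.078 at 8 h (above 0 without WT replicate 2), from -0.29 to 0.17 for KO against controls (above 0 without the littermate or KO replicate 2), from -0.23 to 0.56 for KO at 8 h (below 0 without KO replicate 1) and from -0.12 to 0.16 for 8 h against 3 h (below 0 without WT or KO replicate 1). Element 8 ranged from -0.35 to 0.054 for the difference of LPS effects (above 0 without KO replicate 2). Depth is unknown and limits what an absent element shows, above all in the WT lists at 0 and 3 h.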
